A study of Rattus norvegicus with 3 samples.

Results

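The integrins, laminins and nidogens of the rat thymus were followed across the annotated cells of 2 single-cell libraries, as the genes of the basement membrane and the receptors that hold cells to it and to each other. The members were every gene name made of Itga or Itgb and a subunit number or letter, Itgbl1, every laminin alpha, beta and gamma chain, and both nidogens. This rule found 40 of the 34034 gene names, namely 11 laminin chains, 2 nidogens, 26 integrin subunits and Itgbl1. Both libraries came from thymi of 8-week-old rats of the inbred Lewis strain, with no treatment or mutation named for either. For the stromal library, the enzymes Liberase TH plus DNase I released the cells, of which CD45-negative ones were enriched with an autoMACS instrument and sorted by flow cytometry. For the thymocyte library, tissue was digested with collagenase D and DNase I without that selection. A spatial section from the same series was not used here, and the number of rats behind each library is not given in the sources used here. Each library is 1 sample, so no difference below has a replicate or a test, and every interval (exact, 95%) covers counting error only.

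Laminins are trimers of an alpha, a beta and a gamma chain that assemble into the sheet of a basement membrane, and nidogens link that sheet to collagen IV. Integrins are pairs of an alpha and a beta subunit that bind laminin, collagen, fibronectin and other matrix proteins, or counter-receptors on neighbouring cells. In the thymus, basement membranes surround the capsule, the vessels and the epithelial network, and developing T cells use integrins to enter, move between cortex and medulla and leave.

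Levels are given as unique molecular identifiers (UMIs, each 1 captured RNA molecule) per 1000000 UMIs of all cells under 1 label, written CPM. The label is the cell type that the authors projected onto a cell, or their initial cluster where none was projected. The stromal library held 13226 annotated cells under 29 labels, 24 of them with at least 20 cells, at a median of 9087.5 UMIs per cell. The thymocyte library held 8546 annotated cells under 25 labels, 21 of them with at least 20 cells, at a median of 3994 UMIs. The libraries shared 38 cell barcodes. Of the members, Itga1, Itga4, Itga7, Itgae, Itgb1, Itgb7 and Itgbl1 overlap another protein-coding gene in RefSeq, and whether counting used strand is not given in the sources used here, so their values are less certain. Epcam, an epithelial adhesion molecule, lay between 568 and 1784 CPM in 9 of the 10 thymic epithelial (TEC) labels with at least 20 cells. The exception was aaTEC2 with 254 CPM of Epcam beside 6962 CPM of the fibroblast collagen gene Col1a1, so its label went against its genes. The pooled TEC values below still include aaTEC2, which supplied 459 of their 4782 Lama2 UMIs. Pecam1, an endothelial junction protein, lay between 996 and 1224 CPM in the endothelial (EC) labels capEC, vEC and aEC. Dcn, the fibroblast proteoglycan decorin, reached 2026 to 21263 CPM in the mesenchymal labels TMC1 to TMC4 and capFb, but also 152 to 10552 CPM in the 19 other stromal labels.

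Because Dcn was counted in every stromal label, each member was set beside a reference level. Whether the cells of the other labels made this Dcn themselves was not tested. The reference is the CPM a label would hold if its UMIs of that member stood to its Dcn UMIs as they do in the pooled mesenchymal labels. In the Myeloid label, Lama2 at 92.1 CPM was 0.829 times its reference, Nid1 at 57.2 CPM was 0.974 times, and Itgbl1 at 54.7 CPM was 0.956 times. Levels of these genes in the Myeloid label therefore stood in the ratio to Dcn that fibroblasts have. In the early Pr label of TEC, Lama2 at 192 CPM was 1.21 times its reference, whereas Lama5 was 89.3 times and Itgb4 360 times. In the capEC label, Lama2 was 0.815 times its reference, Lama4 5.65 times and Itga1 26.5 times.

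Upstream sequences are shown for 4 members whose levels set labels apart, Lama4, Itga4 and Itgb7 among thymocyte stages and Itgb8 among epithelial labels and T cells. Each is the 250 bases before the gene's start in RefSeq, from the rat build GRCr8, printed 5′ to 3′ on the gene's strand. Capitals mark a match, on either strand, to one of the 7 motifs searched.
Lama4, chr20:43946648-43946897, plus strand: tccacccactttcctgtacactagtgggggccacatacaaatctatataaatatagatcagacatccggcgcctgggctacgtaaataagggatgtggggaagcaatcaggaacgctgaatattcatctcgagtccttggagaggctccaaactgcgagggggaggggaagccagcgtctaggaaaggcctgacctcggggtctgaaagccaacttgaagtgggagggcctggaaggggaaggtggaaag
Itga4, chr3:84569765-84570014, plus strand: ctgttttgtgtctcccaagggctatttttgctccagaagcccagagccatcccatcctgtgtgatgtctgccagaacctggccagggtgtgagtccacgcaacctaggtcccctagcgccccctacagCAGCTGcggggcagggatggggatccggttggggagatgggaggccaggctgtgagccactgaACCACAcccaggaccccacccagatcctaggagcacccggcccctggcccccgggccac
Itgb7, chr7:135239072-135239321, minus strand: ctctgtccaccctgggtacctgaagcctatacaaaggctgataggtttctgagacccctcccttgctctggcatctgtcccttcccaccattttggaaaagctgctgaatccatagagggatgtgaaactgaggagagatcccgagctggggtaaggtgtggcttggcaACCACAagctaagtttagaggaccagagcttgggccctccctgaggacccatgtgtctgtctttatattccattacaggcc
Itgb8, chr6:146351246-146351495, minus strand: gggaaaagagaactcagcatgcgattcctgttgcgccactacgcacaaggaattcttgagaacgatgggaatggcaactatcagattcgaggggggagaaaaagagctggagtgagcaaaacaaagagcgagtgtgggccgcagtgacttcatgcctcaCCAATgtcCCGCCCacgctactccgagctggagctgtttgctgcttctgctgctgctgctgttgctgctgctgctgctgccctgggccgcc
In the Itga4 stretch, capitals mark an E-box (CAGCTG) from 122 to 117 bases before the start and a RUNX core (TGTGGT, here on the other strand) from 59 to 54 bases before it. The Itgb7 stretch has a RUNX core, also on the other strand, from 81 to 76 bases before the start. The Itgb8 stretch has a CCAAT box (CCAAT) from 91 to 87 bases and a GC box (GGGCGG, on the other strand) from 83 to 78 bases before the start. The Lama4 stretch held none of the 7, which were these 4 and an ETS core (CCGGAAG), an AP-1 site (TGANTCA) and a forkhead site (TGTTTAC). The matches do not overlap one another, and a match is a description of letters only. Of 27457 rat promoters of this length, 14.1% held the RUNX core, 11.9% the E-box, 34.3% the CCAAT box and 32.4% the GC box. Promoter entries matched 30 of the 40 members, of which 6 held the RUNX core, 3 the E-box, 6 the CCAAT box and 16 the GC box.

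Laminins came mainly from the mesenchymal labels, which made up 62.1% of annotated stromal cells and held 83.3% of laminin UMIs and 84.3% of nidogen UMIs. The 11 laminin chains together reached 2685 CPM in the pooled mesenchymal labels, 1303 in the vSMC/PC label, 978 in endothelial labels and 790 in TEC. Among single labels the sum was highest in capFb at 3305 CPM, TMC2 at 3120 and TMC1 at 2947, and was 1116 in TMC4. Integrins were spread more widely. The 26 subunits together reached 2231 CPM in vSMC/PC, 1803 in endothelial labels, 1308 in TEC and 1278 in mesenchymal labels, and mesenchymal cells held 59.0% of their UMIs. Among labels with at least 20 cells, the highest integrin sum was in aaTEC1 at 2444 CPM, of which Itgb1 alone made up 1686.

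Lama2, the alpha chain of the laminins of muscle and interstitial matrix, was highest in TMC2 at 1806 CPM (1790 to 1822), followed by capFb at 1598, TMC1 at 1474, nmSC at 1044 and TMC3 at 934. TMC4 held 152 CPM of it, less than the 340 CPM of vSMC/PC. The lowest level over the 24 labels was 13.4 CPM in the label mimetic(muscle) and the median 194. Lama2 thus divided TMC4 from the other mesenchymal labels. In TEC its pooled level of 165 CPM was 1.10 times the Dcn reference, in endothelial labels its 159 CPM was 0.98 times and in Myeloid 0.83 times. The nmSC label held only 39 cells, with 8535 CPM of Dcn and 2007 of Col1a1 beside 462 of the Schwann-cell gene Cdh19. How much of its matrix gene levels was fibroblast RNA was not tested.

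Lama4, an alpha chain of vessel and capsule laminins, was highest in capFb at 554 CPM, with 402 in TMC1, 360 in nmSC, 292 in TMC3 and 282 in TMC2. Unlike Lama2 it was kept in TMC4, at 253 CPM, and in capEC at 246, aEC at 222 and vSMC/PC at 176. The vEC label held 75.7 CPM. Lama4 stood 4.08 times above the Dcn reference in endothelial cells, 2.82 times in vSMC/PC and 1.19 times in TEC.

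Lama5, the alpha chain of epithelial and endothelial basement membranes, had its highest level in aaTEC1 at 77.7 CPM (57.5 to 103), close to 73.5 in mimetic(goblet), 65.5 in vEC, 64.3 in capEC and 58.7 in aEC. It lay at 31.7 CPM in both cTEC and mTEC1. The vSMC/PC label held 38.8 CPM. The mesenchymal labels held 0.862 to 5.45 CPM and Myeloid 0.497. Lama5 was therefore higher in epithelial, endothelial and vSMC/PC labels than in the mesenchymal ones.

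Lama3 and Lamb3 encode chains of the laminin that anchors epithelia through hemidesmosomes. Lama3 was highest in mTEC1 at 136 CPM, with 85.8 in cTEC, 68.9 in early Pr, 59.3 in mTEC-prol and 55.7 in vSMC/PC. Lamb3 was highest in MEC at 142 CPM and cTEC at 130, then early Pr at 97.1, mTEC1 at 67.2, aaTEC2 at 47.6 and mTEC-prol at 33.6, and was down to 2.29 in mTEC2 and 0.297 in vSMC/PC. These chains thus had different highest labels, and vSMC/PC carried Lama3 with almost no Lamb3. The MEC label, with 48 cells and 3513 CPM of the mesothelial gene Msln, carried Lamb3 together with 32.3 CPM of Lama3.

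Of the other laminin chains described here, Lamb1 and Lamc1 were highest in mesenchymal labels, and Lamb2 and Lamc3 in vSMC/PC. Lamb1, the widely used beta chain, lay between 220 and 285 CPM in all 5 mesenchymal labels and was 165 in early Pr, 174 in capEC and 17.7 in Myeloid. Lamb2, the beta chain of vessel and muscle laminins, was highest in vSMC/PC at 232 CPM and capFb at 223. Lamc1, the common gamma chain, was highest in capFb at 650 CPM and reached 360 in capEC and 345 in vSMC/PC. Lamc3 was highest in vSMC/PC at 20.8 CPM, and its 515 UMIs lay otherwise mainly in TMC2 at 10.6 CPM. Lama1 had 44 UMIs in all annotated stromal cells.

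**Figure D1:**
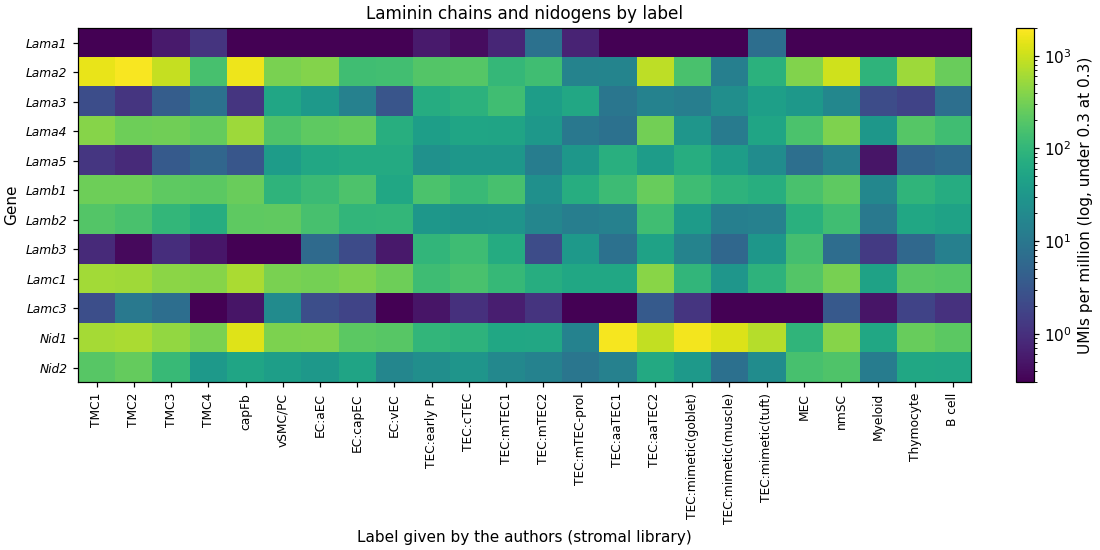
CPM of 10 laminin chains and 2 nidogens (rows) in the 24 stromal labels with at least 20 cells (columns), on a logarithmic colour scale. Yellow marks high levels: Lama2 is bright in TMC1 to TMC3, capFb and nmSC, and Nid1 in capFb, aaTEC1, mimetic(goblet) and mimetic(muscle). Among TEC labels, Lama3 and Lamb3 are brighter in early Pr, cTEC and mTEC1 than in aaTEC1, mimetic(goblet) and mimetic(muscle).

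The mix of alpha chains differed by class. Lama2 made up 78.8% of laminin alpha UMIs in mesenchymal cells, 55.7% in vSMC/PC, 50.9% in TEC and 38.8% in endothelial cells. Lama3 made up 24.6% in TEC, 9.13% in vSMC/PC, 2.86% in endothelial cells and 0.162% in mesenchymal cells. Lama4 took 42.6% in endothelial cells against 14.6% in TEC, and Lama5 15.7% against 9.63%. Genes differ in how well 3′ capture detects them, so these shares can be set side by side between classes, not between chains. The Lama2 share in TEC and endothelium rests on UMIs at its Dcn reference, so how much of it these cells made was not tested.

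Nid1, the main nidogen, had 2 sites of high level. Among mesenchymal labels it was highest in capFb at 1310 CPM, with 647 in TMC2, 613 in TMC1, 486 in TMC3 and 345 in TMC4. Higher still were 2 small epithelial labels, aaTEC1 at 1799 CPM (1696 to 1907) and mimetic(goblet) at 1725 (1638 to 1815), with mimetic(muscle) at 1255 and mimetic(tuft) at 740. The other TEC labels, aaTEC2 apart, lay between 14.6 CPM in mTEC-prol and 99.4 in early Pr. So Nid1 was more than 10 times as high in 3 epithelial labels as in early Pr, cTEC, mTEC1, mTEC2 and mTEC-prol.

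These high-Nid1 cells came together in 1 of the authors' initial clusters, TEC-e, with 133 cells. It held 49 of 55 mimetic(goblet), 36 of 44 aaTEC1, 30 of 35 mimetic(muscle), 8 of 9 mimetic(neuroendo) and 6 of 25 mimetic(tuft) cells. By cluster, Nid1 was 1845 CPM in TEC-e against 33.5 in TEC-d, 35.1 in TEC-b, 147 in TEC-a and 357 in TEC-c. The fibroblast marker Dcn was 387 CPM in aaTEC1, and Nid1 there was 95.6 times its Dcn reference, with 31.2 times in mimetic(muscle), 26.6 in mimetic(tuft) and 17.9 in mimetic(goblet). In cTEC it was 1.15 times and in early Pr 1.18 times. Nid1 was seen in 36 of 44 aaTEC1 cells, or 81.8% (67.3 to 91.8), and in 16.2% of Myeloid cells at a median depth of 9510 UMIs. After thinning each cell to 1000 UMIs the shares were 72.1% and 3.78%.

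Other members set TEC-e apart as well. Itgb1, the beta subunit shared by most matrix receptors, was 1621 CPM in TEC-e against 205 to 375 in the other 4 TEC clusters. Itgb8, which pairs with Itgav and binds latent TGF-beta, was 358 CPM against 19.5 to 129, and Lama5 67.6 against 7.78 to 35.2. Itga6 was lower, at 20.5 CPM against 46.9 to 225, and Lamb3 at 3.83 against 40.6 to 120. Foxi1, a forkhead transcription factor, was 479 CPM in aaTEC1, 462 in mimetic(goblet), 369 in mimetic(muscle) and 349 in mimetic(tuft). It was 47.6 CPM in aaTEC2 and at most 0.2 in early Pr, cTEC, mTEC1, mTEC2 and mTEC-prol. The 4 differently named labels with high Foxi1 thus shared it as well as high Nid1. Whether the names goblet, muscle and tuft match these cells was not tested. Nid2, the second nidogen, did not share the pattern. It was highest in TMC2 at 251 CPM, TMC1 at 201, nmSC at 176 and MEC at 156, and was 14.3 in aaTEC1. Nid1 made up 98.0% of nidogen UMIs in mimetic(goblet), 96.1% in capFb, 72.1% in TMC2 and 37.9% in MEC.

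**Figure D2:**
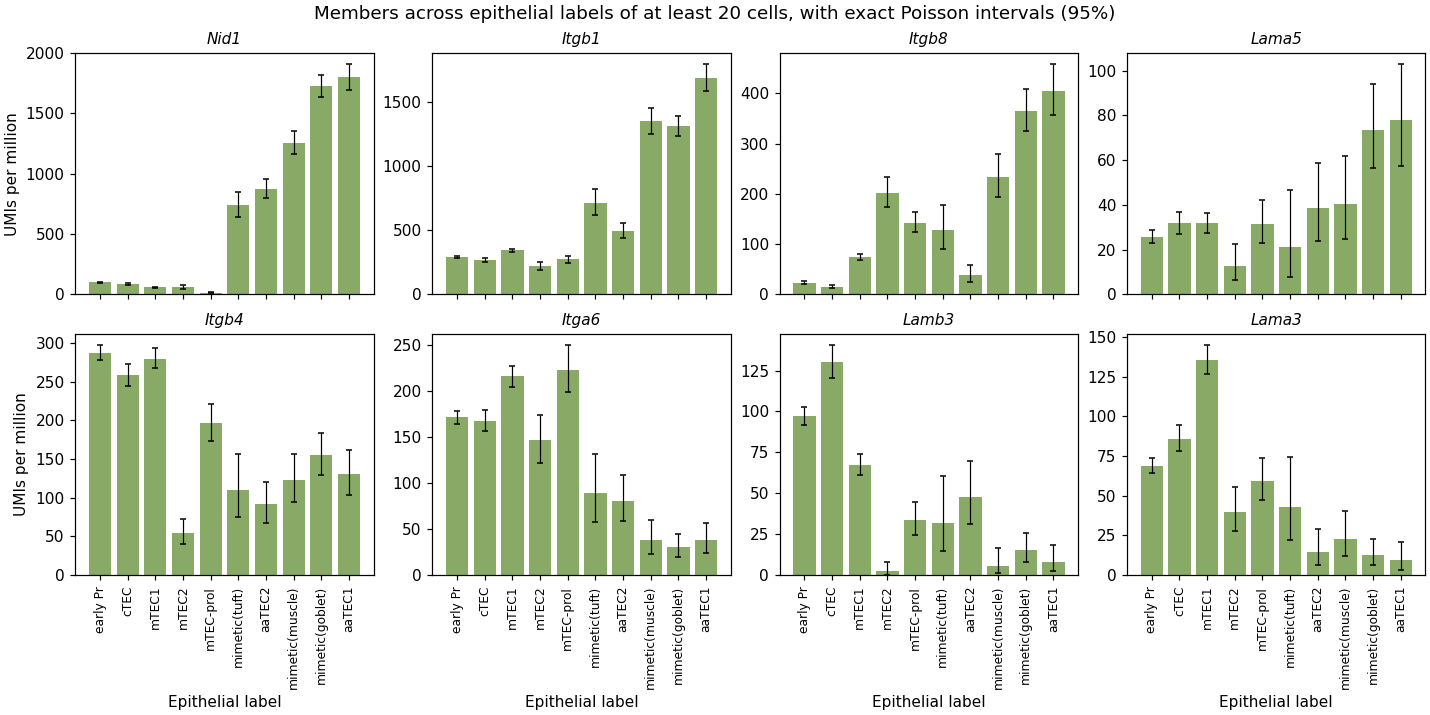
CPM of 8 members (panels) in the 10 TEC labels with at least 20 cells, bars with exact 95% Poisson intervals on an axis from 0. Nid1, Itgb1 and Itgb8 stand highest in aaTEC1, mimetic(goblet) and mimetic(muscle), while Itga6 stands highest in mTEC-prol and mTEC1. Lamb3 stands highest in cTEC, early Pr and mTEC1 and is low in mTEC2.

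The laminin-binding integrins marked epithelium and vessels. Itga6, the alpha subunit of the hemidesmosome receptor, was highest in capEC at 463 CPM (443 to 483), with 282 in aEC, 223 in mTEC-prol, 216 in mTEC1, 199 in vEC, 171 in early Pr and 167 in cTEC. TMC2, TMC1 and capFb held 1.84 to 9.22 CPM and TMC4 122. Itgb4, its hemidesmosome partner, was highest in early Pr at 287 CPM, mTEC1 at 280 and cTEC at 259, whose intervals and those of nmSC at 212 and vEC at 208 set them far above the 2.23 CPM of capFb. It was 58.7 CPM in capEC, where Itga6 was highest. Itga3 was highest in mTEC2 at 96.0 CPM and lay between 49.0 and 70.6 in the 8 other TEC labels outside aaTEC2. Itga7, a muscle laminin receptor, was 119 CPM in vSMC/PC on 403 UMIs, 8.70-fold (4.81 to 17.6) over aEC at 13.7.

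The collagen-binding integrins were divided among TMC4, vessels, capsule and epithelium. Itga1, a collagen IV receptor, was highest in TMC4 at 839 CPM (822 to 856), followed by vSMC/PC at 790, capEC at 716, aEC at 548, TMC3 at 453, vEC at 394 and nmSC at 388. TMC2 at 67.7, TMC1 at 62.7 and capFb at 16.4 CPM were far below. Itga11, the fibroblast receptor of fibrillar collagen, was highest in the mesenchymal label where Itga1 was lowest, with 231 CPM in capFb, 90.2 in TMC2, 86.2 in TMC1 and 9.69 in TMC4. Itga2 was highest in cTEC at 88.2 and early Pr at 86.4 CPM, which their intervals did not separate, and was 65.9 in aaTEC2, 58.7 in capFb and 33.6 in mTEC1. Itga10 had 45 UMIs.

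Among the integrins that bind the RGD motif of fibronectin and related proteins, Itga5, the fibronectin receptor, was highest in vEC at 90.7 CPM, capEC at 80.9 and aEC at 64.9, and 6.82 in cTEC and 8.90 in early Pr. Itga8, the nephronectin receptor, was 148 CPM in TMC2 against 67.0 in nmSC, 52.6 in TMC3, 49.2 in TMC1, 7.05 in capFb and 4.33 in TMC4. Itga8 thus divided TMC2 from both capFb and TMC4. Itgav was widely present, from 24.8 CPM in Myeloid to 114 in MEC and 112 in TMC4. Itgb5 was highest in capFb at 152 CPM and TMC2 at 132. Itgb3 was highest in capFb at 29.5 CPM, and Itgb6, an epithelial partner of Itgav, in mTEC2 at 18.3.

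Itgb8 was highest in mimetic, aaTEC1 and medullary labels. It was 404 CPM in aaTEC1, 365 in mimetic(goblet), 234 in mimetic(muscle), 202 in mTEC2, 143 in mTEC-prol, 128 in mimetic(tuft) and 74.0 in mTEC1. Outside TEC it was 121 CPM in MEC and 38.8 in nmSC. It was 22.9 in early Pr and 15.4 in cTEC, beside 11.4 to 20.6 in the mesenchymal labels.

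Itga9, a receptor for tenascin and Vcam1, was highest in nmSC at 70.5 CPM (43.1 to 109) on 20 UMIs. The interval did not separate nmSC from capFb at 54.9 (51.3 to 58.6). The leukocyte integrins were held by the blood-cell labels that remained after the CD45-negative sort. Itgal, the alpha subunit of the LFA-1 receptor for Icam1 and Icam2, was 133 CPM in the Thymocyte label on 229 UMIs, at least 12.5-fold over the tuft label, where the limit is 3 UMIs. Itgam, the alpha subunit of the myeloid Mac-1 receptor, was 85.0 CPM in Myeloid, at least 7.96-fold over the tuft label. Itgb2, the common leukocyte beta subunit, was 99.2 CPM in Myeloid and 69.4 in Thymocyte, and Itgb7 15.9 and 30.3. Itga4, the alpha subunit that binds Vcam1, Fn1 and Madcam1, was 185 CPM in Thymocyte, 92.8 in Myeloid and 71.1 in B cell. Itga4 was also 45.7 in mTEC2 and 20.8 in vSMC/PC. At the ratio seen in the Thymocyte label, 4.96 and 0.57 CPM would accompany their 10 thymocyte marker genes. The mTEC2 label held 68.6 CPM of Ptcra, 1 of these 10, against 61.8 in Thymocyte. It also held 241 CPM of the myeloid gene Lyz2 and 40.0 of Ptprc, and the part of blood-cell RNA in its Itga4 level was not tested. Itgae was low throughout, from 7.12 to 30.5 CPM with a median of 19.8, and overlaps the gene Haspin. Itgad with 19 UMIs and Itgax with 42 were too few to describe in this library.

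Itga2b, best known as the platelet fibrinogen receptor, was highest in TMC4 at 68.5 CPM, followed by vEC at 51.1 and capEC at 24.0. In these 3 labels the platelet genes Gp9 and Pf4 were at most 0.276 and 2.70 CPM, and Ppbp and Gp1bb had no UMI in any label of the library. Itgb1 had a median of 449 CPM over the 24 labels, from 111 in Myeloid to 868 in vSMC/PC, 1350 in mimetic(muscle) and 1686 in aaTEC1. Itgbl1, a secreted protein that resembles an integrin beta subunit but pairs with no alpha chain, was highest in TMC2 at 1006 CPM and TMC1 at 813, with 621 in capFb and 171 in TMC4. Over the whole stromal library, 3 of the 36 members with enough UMIs, Itga7, Itgal and Itgam, were at least 3-fold higher in 1 label than in the next, against 6.76% of all genes tested. With cells thinned to 1000 UMIs no member met this rule.

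**Figure D3:**
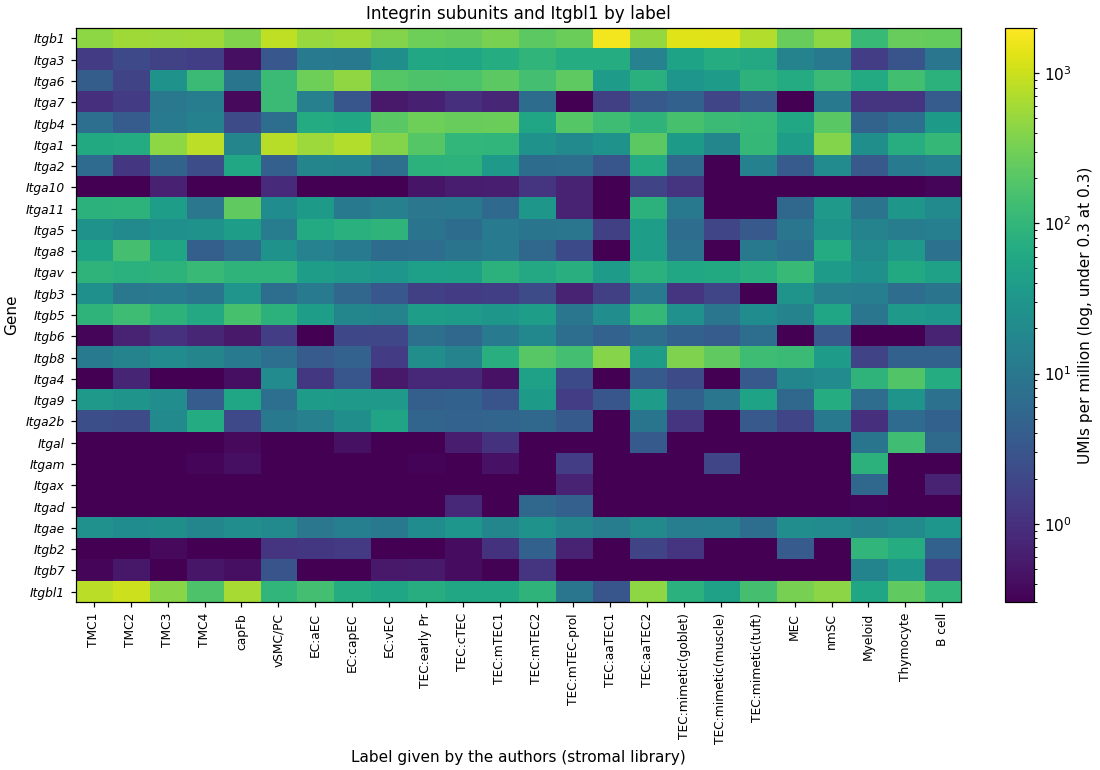
CPM of the 26 integrin subunits and Itgbl1 (rows) in the 24 stromal labels with at least 20 cells (columns), on a logarithmic colour scale. Yellow marks high levels: Itgb4 and Itga3 are bright in TEC labels, Itga1 in TMC4, vSMC/PC and endothelial labels, and Itgal and Itgam in the Thymocyte and Myeloid labels.

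Epithelium was then set against mesenchyme, member by member. Both classes carried receptors, with integrin sums of 1308 CPM in TEC and 1278 in mesenchymal labels. Of 34 members with at least 20 UMIs in the higher class, 28 differed by at least 2-fold, where 39.3% of all genes tested did. There were 12 higher in TEC and 16 lower, against 23.2% and 16.1% of all genes. The median log2 ratio of the members was -0.82 and that of all genes 0.16. Higher in TEC were chains of the hemidesmosome laminin and its receptors. Lamb3 was 81.7 against 0.544 CPM (150-fold, 111 to 208), Itga3 40.8-fold, Itgb4 252 against 6.75 CPM (37.3-fold, 34.2 to 40.8), Lama3 28.7-fold, Lama5 12.8-fold and Itga6 6.84-fold. Itgb6, Itga4, Itgb8, Itga2 and Lama1 were also among the 12, Lama1 on 24 against 20 UMIs. Itga4 rested on 65 TEC UMIs, 40 of them in mTEC2, and was 0.824 CPM in early Pr, 0.802 in cTEC and 0.466 in mTEC1.

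The 16 lower members were mostly matrix genes of fibroblasts and their receptors. Lama2 was 165 against 1346 CPM (8.15-fold lower, 7.92 to 8.39), Lama4 7.51-fold, Nid2 6.61-fold, Lamb2 5.23-fold, Lamc1 4.36-fold and Nid1 3.25-fold lower. Itgbl1, Itga11, Itgb3, Itga8, Lamc3, Itga9, Itga7, Itgb5, Itga2b and Itga5 were 2.91- to 10.1-fold lower. How much of the TEC level of these genes was fibroblast RNA was not tested. Without the 1278 cells outside the mesenchymal, vSMC/PC, MEC and nmSC labels that held 3 or more UMIs of Pdgfra, Col1a1 and Dcn, the TEC to mesenchymal ratio went from 0.123 to 0.031 for "Lama2, TEC against mesenchymal", from 0.133 to 0.0301 for "Lama4, TEC against mesenchymal" and from 0.101 to 0.0137 for "Itgbl1, TEC against mesenchymal". The Nid1 ratio of 0.307 was 0.128 without the 133 cells of cluster TEC-e ("Nid1, TEC against mesenchymal"). Itgb1, Itgav, Itga1 and Lamb1 were within 2-fold. Of 28 partner genes tested, 13 were higher and 5 lower in TEC, among them the hemidesmosome collagen Col17a1 at 219 against 4.27 CPM, the kindlin Fermt1 at 140 against 0.38 and the laminin receptor Bcam at 191 against 5.60.

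In endothelium, 22 of 33 members tested differed by at least 2-fold from mesenchyme, where 32.7% of all genes did. There were 9 higher and 13 lower, against 12.9% and 19.7% of all genes. Lama5 was 64.3 against 2.44 CPM (26.3-fold, 22.3 to 31.2), Itgb4 17.8-fold, Itga6 339 against 24.8 CPM (13.7-fold, 12.9 to 14.5) and Itga3 10.7-fold higher. Lama3, Itga5, Itga1 and Itga2b were 2.40- to 4.23-fold higher. Itgbl1 was 9.92-fold lower, Lama2 8.48-fold, Itga11 7.04-fold and Itga8 6.85-fold, and the Lama2 ratio went from 0.118 to 0.00924 without the cells holding fibroblast UMIs ("Lama2, endothelial against mesenchymal"). Lama4 was 2.04-fold and Lamb1 2.18-fold lower. Among partners, Icam2, a ligand of LFA-1, was 388 against 4.04 CPM.

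Between the 2 classes that line basement membranes, 20 of 32 members tested differed by at least 2-fold, where 40.4% of all genes did. There were 9 higher in TEC and 11 higher in endothelium, against 28.2% and 12.2% of all genes. Lamb3 was 42.6-fold higher in TEC on 17 endothelial UMIs, Itgb8 21.4-fold, Lama3 6.80-fold, Itga2 4.93-fold, Itgb6 4.62-fold, Itga3 3.81-fold and Itgb4 2.10-fold. Lama1, with 0 endothelial UMIs, was at least 2.45-fold higher. Endothelium was higher in Itga5 by 9.08-fold, Itga2b 7.01-fold, Itga9 5.91-fold, Itga1 4.32-fold, Lama4 3.68-fold, Lamb2 3.55-fold, Itgb3 3.06-fold, Itga7 2.67-fold, Lamc1 2.60-fold and Lama5 2.06-fold. Itga6, at 339 against 169 CPM, sat on the 2-fold line, and the call ended under 4 alternatives, with a ratio of 0.534 without cluster TEC-e ("Itga6, TEC against endothelial"). The ratio of "Lamb3, TEC against endothelial" ran from 18.8 to 99.2 over the alternatives. Among the laminin chains named here, Lama1, Lama3 and Lamb3 were thus higher in pooled epithelium. Lama4, Lama5, Lamb2 and Lamc1 were higher in pooled endothelium. The Lama5 ratio lay close to the 2-fold line. The single labels highest in Lama5 were epithelial, aaTEC1 at 77.7 and mimetic(goblet) at 73.5 CPM, against 65.5 in vEC.

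The names mTEC1 (medullary) and cTEC (cortical) were taken from the authors. Of the TEC marker genes, Prss16 was 207 CPM in cTEC against 5.60 in mTEC1 and Psmb11 10.4 against 0.466. Krt5 was similar, at 3119 CPM in cTEC and 3340 in mTEC1. The initial cluster TEC-b held 311 of 448 cTEC and 176 of 482 mTEC1 cells, so the labels were partly mixed by cluster. Within TEC, mTEC1 and cTEC differed by at least 2-fold in 4 of 28 members, where 15.1% of all genes did. There were 3 higher and 1 lower in mTEC1, against 9.87% and 5.22% of all genes. Itgb8 was 74.0 against 15.4 CPM (4.79-fold, 3.76 to 6.18) and Itgb6 11.7 against 5.61 (2.08-fold, 1.33 to 3.33). Itga2 was 33.6 against 88.2 CPM (2.63-fold lower, 2.23 to 3.11). Just under the 2-fold line were Lamb3, 1.94-fold lower in mTEC1, and Itgav, 1.87-fold higher. Among partners, the matrix protein Tnc was 3.77-fold higher in mTEC1, at 464 CPM, while Npnt was 16.9 against 65.2 and the netrin Ntn4 19.0 against 59.4. Without cells holding fibroblast UMIs the count of members was 7. With each cell thinned to 1000 UMIs the ratio was 0.527 for "Itga2, mTEC1 against cTEC" and 1.48 for "Itgb6, mTEC1 against cTEC", which ended both calls.

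The vEC and capEC labels differed by at least 2-fold in 9 of 27 members, where 10.6% of all genes did. In vEC 3 were higher and 6 lower, against 4.37% and 6.25% of all genes. Itgb4 was 208 against 58.7 CPM (3.54-fold, 3.07 to 4.09), Itga3 2.25-fold and Itga2b 2.13-fold higher. Lower in vEC were Lama3 by 4.80-fold, Itgb8 3.41-fold on 5 against 21 UMIs, Lama4 at 75.7 against 246 CPM (3.25-fold, 2.84 to 3.72), Lamb1 3.03-fold, Nid2 3.01-fold and Itga6 at 199 against 463 CPM (2.32-fold, 2.13 to 2.53). So the 2 subunits of the hemidesmosome receptor differed in opposite directions between these labels. Of the leukocyte ligands, 3 stood on the vEC side, with Vcam1, the ligand of Itga4, at 318 against 27.2 CPM, Icam1 at 138 against 22.0 and Madcam1, the ligand of Itga4 with Itgb7, at 48 UMIs against 0, at least 19.7-fold. Icam2 did not, with 364 CPM in vEC against 421 in capEC. Col4a1 was 494 against 1649 CPM. Lama5 did not divide these labels, with 65.5 against 64.3 CPM (ratio 1.02, 0.854 to 1.21). Thinned to 1000 UMIs, the calls of "Itga2b, vEC against capEC" at 1.66 and "Lama3, vEC against capEC" at 0.550 ended, and without cells holding fibroblast UMIs the ratio of "Lama4, vEC against capEC" was 0.148 in place of 0.308.

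TMC4 differed from TMC1 to TMC3 by at least 2-fold in 16 of 31 members, where 22.9% of all genes did. In TMC4 7 were higher and 9 lower, against 10.4% and 12.5% of all genes. Itga6 was 122 against 7.76 CPM (15.7-fold, 14.0 to 17.6), Itga2b 68.5 against 5.87 (11.7-fold, 10.2 to 13.4) and Itga1 839 against 146 (5.76-fold, 5.59 to 5.94). Itga7, Lama3, Lama5 and Itgb4 were 2.25- to 3.85-fold higher. TMC3 alone stood nearer to TMC4 than the pool did, with 453 CPM of Itga1, 10.1 of Itga7 against 11.9 in TMC4, 11.6 of Itgb4 against 14.5, 3.69 of Lama5 against 5.45 and 4.07 of Lama3 against 7.96. Lama2 was 152 against 1536 CPM (10.1-fold lower, 9.63 to 10.6) and Itga8 4.33 against 101 (23.5-fold lower, 17.8 to 31.6). Itga11, Itga9, Nid2, Itgbl1 and Lamb2 were 2.11- to 8.15-fold lower, and Lamc3 had 2 UMIs against 395. Lama4, Lamc1 and Lamb1 were within 1.37-fold. The mesenchymal label with the lowest Lama2 thus carried the highest levels of the collagen receptor Itga1. Partners higher in TMC4 included Thbs1 at 226 against 22.8 CPM, Vtn at 174 against 38.3 and Tnn at 60.4 against 1.13, while Fn1 was 84.0 against 337.

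Thymocytes carried receptors and 1 laminin chain. Fibroblast RNA, as read from Dcn, was nearly lacking in the 20 T-lineage labels of the thymocyte library, where Dcn was between 0 and 0.797 CPM. Dcn does not measure RNA of epithelial or endothelial cells, and their part in these labels was not tested. The B+myeloid label, which held 343 CPM of Dcn, was the exception, and its Lama2 at 29.7 CPM and Nid1 at 17.6 were accompanied by those fibroblast UMIs. Lama4 was highest in DP, the label of CD4 and CD8 double-positive cells, at 167 CPM (162 to 173) on 3164 UMIs. It was 124 in DP-P, 119 in gdT, 80.6 in DN and 57.5 in Pre DP-sig. It was 31.3 in intCD4, 17.9 in DP-sig and 13.2 in Immature CD8-1, and 1.97 to 12.8 in the 4 mature labels. It was 5.91 in Mature cycling T. Lama4 was therefore higher in DP, DP-P, gdT and DN than in DP-sig and the mature labels. The gdT label also held 348 CPM of Rag1 and 247 of Ptcra, genes of immature cells. It held 58.0 CPM of Bcam, 21.3 of Col17a1 and 17.6 of Col4a1, against 0.159, 8.56 and 2.96 in DP. How much of its Lama4 level was RNA of other cells was not tested.

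Lama4 stood alone among the laminin chains of DP. Lama2 was 0.740 CPM there, Lamb1 0.159, Lamc1 5.39 and Lama5 6.77, and Lamb2 had no UMI. Lama4 was detected in 32.2% of DP cells (31.0 to 33.5) at a median of 3205.5 UMIs and in 2 of 121 Mature CD4-1 cells, or 1.65% (0.201 to 5.84), at a median of 7964. After thinning to 1000 UMIs the shares were 13.4% and 0%. The share in DN was 57.7% at a median of 23190 UMIs and 6.92% after thinning, so the unthinned order of DN and DP was opposite to that of their CPM.

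Itga6, which pairs with Itgb1 in T cells, was 243 CPM in DP and 176 in Pre DP-sig, 101 in Immature CD8-1, and 62.2 to 94.1 in the mature labels. Itga4 peaked later, at 512 CPM in Pre DP-sig (472 to 554) and 494 in DP-sig (456 to 533), against 205 in DP and 126 in DN, and was 101 to 250 in the mature labels. Itgal was highest in Immature CD4-1 at 298 and DP-sig at 294 CPM, with 161 in DP and 70.3 in DN. Itgb2 was 130 in Immature CD4-1, 119 in Immature CD4-2, 89.9 in DP and 23.5 in DN. The intervals did not separate the 2 highest labels of either LFA-1 subunit.

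Itgb7, the beta subunit of gut-homing receptors, was highest in Mature CD4-1 at 89.6 CPM and Treg at 88.4, with 77.3 in Mature CD4-2, 62.2 in Mature CD8-1, 53.1 in AgoSel2 and 43.5 in Mature CD8-2 on 18 UMIs. It was 27.2 in DP, 4.80 in DN and 1.10 in gdT, where it rested on 3 UMIs. Itgb3, a partner of Itgav, was 74.8 CPM in Immature CD4-2 (57.2 to 96.1) and 2.91 in DP, and the next T-lineage label was intCD4 at 41.7. Itgae, a partner of Itgb7 that binds E-cadherin, was highest in AgoSel1 at 47.5 CPM, B+myeloid at 46.0 and AgoSel2 at 44.5. Itgb1 was 193 CPM in Treg and 166 in B+myeloid, with a median of 65.6 over the 21 labels.

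**Figure D4:**
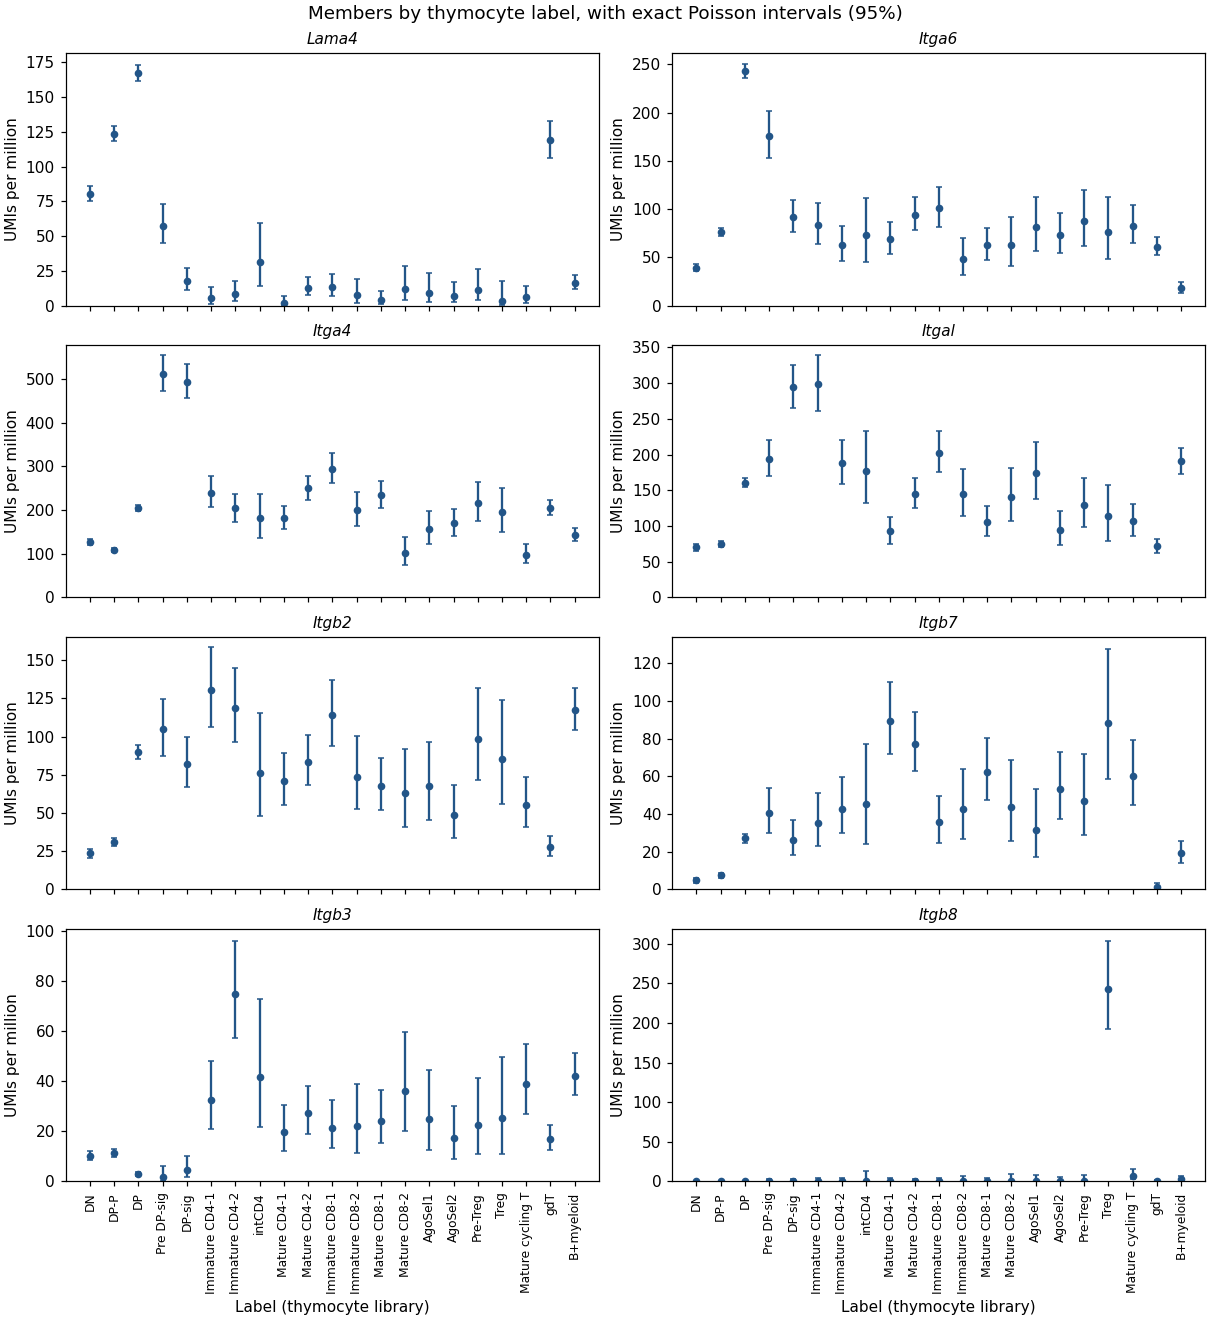
CPM of Lama4, Itga6, Itga4, Itgal, Itgb2, Itgb7, Itgb3 and Itgb8 (panels) in the 21 labels of the thymocyte library with at least 20 cells, points with exact 95% Poisson intervals. Lama4 and Itga6 stand highest in DP, Itga4 in Pre DP-sig and DP-sig, Itgb7 in Mature CD4-1 and Treg, and Itgb8 in Treg.

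In this library 4 of 24 members with enough UMIs were at least 3-fold higher in 1 label than in the next, against 7.26% of all genes. Itgad, Itgax and Itgb5 did so in B+myeloid, on 107 of 110, 122 of 127 and 250 of 269 UMIs, at least 4.30-, 4.90- and 10.0-fold over the 3-UMI limit of the intCD4 label. Itgb8 did so in Treg, the label of regulatory T cells, at 243 CPM (192 to 304), on 77 of its 97 UMIs and at least 23.3-fold over the same limit. It was seen in 14 of 37 Treg cells, or 37.8% (22.5 to 55.2) at a median of 8183 UMIs, and in 0 of 5202 DP cells at a median of 3205.5 UMIs, which allows a share of up to 0.0709% of DP cells with a UMI and does not limit the share that express the gene. After thinning, the Treg share was 21.6%, and no member of this library met the 3-fold rule on 20 UMIs. The label held 180 CPM of the regulatory T-cell factor Foxp3, the highest of the 21. It also held 445 CPM of the B-cell gene Cd79a, with 6.31 of Cd79b and 0 of Ms4a1, and the part of this in the Itgb8 level was not tested.

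Set against DP, the DN label differed by at least 2-fold in 14 of 18 members tested, where 47.5% of all genes did. In DN 2 were higher and 12 lower, against 18% and 29.5% of all genes. The median log2 ratio was -1.29 for members and -0.34 for all genes. Itgb3 was 10.2 against 2.91 CPM (3.49-fold, 2.50 to 4.92) and Itgae 30.0 against 14.6 (2.05-fold, 1.74 to 2.41). Lower in DN were Itga9 at 2.86 against 22.2 CPM (7.74-fold, 5.37 to 11.5), Itga6 at 39.0 against 243 (6.22-fold, 5.63 to 6.89), Itgb7 5.66-fold, Itgb2 3.82-fold, Itga1 2.62-fold, Itgal 2.29-fold and Itgav 2.14-fold. Lama5, Itgbl1, Itga2 and Lamb3 made up the rest on 3 to 12 UMIs in DN, with Lama4 at 2.08-fold. The Lama4 call ended with the initial clusters as labels, where the ratio was 0.593 ("Lama4, DN against DP"). Thinned to 1000 UMIs, the Itgae ratio was 1.09 ("Itgae, DN against DP") and 6 members were past 2-fold.

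The DN label did not match its name, since it held 702 CPM of Cd8a and 150 of Cd4, and only 192 of its 390 cells lay in the initial cluster DN. With those 192 cells alone the count was again 14, and the Itga6 ratio moved from 0.161 to 0.0852 ("Itga6, DN against DP"). Npnt, the ligand of Itga8, was 13.4 against 127 CPM among the 18 partners tested, of which 2 were higher and 5 lower in DN.

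The 4 mature CD4 and CD8 labels, pooled to 366 cells, differed from DP by at least 2-fold in 11 of 18 members, where 30.4% of all genes did. In mature cells 3 were higher and 8 lower, against 9.72% and 20.6% of all genes. Itgb3 was 25.3 against 2.91 CPM (8.71-fold, 6.17 to 12.4), Itgb7 73.0 against 27.2 (2.69-fold, 2.31 to 3.12) and Itga2 8.54 against 3.65 (2.34-fold, 1.48 to 3.62). Lama4 was 7.43 against 167 CPM (22.5-fold lower, 15.4 to 34.2) and Itga6 75.2 against 243 (3.23-fold lower, 2.86 to 3.66). Itga9, with 2 UMIs against 419, Itga1 with 4 against 261, Lama5, Nid2, Lamb3 and Itgbl1 were the others, all on at most 4 UMIs in mature cells. Thinned to 1000 UMIs, 5 members were past 2-fold. Itga4 at 210 against 205 CPM (ratio 1.02, 0.947 to 1.11), Itgb2 and Itgal were within 2-fold. Of the beta subunits that pair with Itga4, Itgb7 was higher in the mature labels and Itgb1, at 45.2 against 70.0 CPM, was not.

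Mature CD8 and mature CD4 labels differed by at least 2-fold in 1 of 10 members tested, where 5.63% of all genes did. That member was Itga2, lower in CD8 with 5 against 26 UMIs, where 3.6% of all genes were lower and 2.03% higher. Itgb7 was 56.5 against 82.8 CPM (1.46-fold lower in CD8, 1.12 to 1.94) and Itga4 194 against 219 (1.13-fold, 0.973 to 1.32).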

How the data were processed

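RNA was measured in single cells of 2 rat thymus libraries on the 10x Genomics platform, with 16160 barcodes in the stromal and 8574 in the thymocyte library. Per the submitters' processing notes, Cell Ranger 8.0.0, Seurat 5.3.0 and the rat build mRatBN7.2 were used. The deposited matrices hold raw UMI counts per gene and cell, made by the authors from their reads, and the authors' deposited annotation gives each cell's label, its total count and the percent of mitochondrial UMIs, the last not used here. The barcodes shared between libraries were kept in both. No doublet caller was run here, and the authors' annotated cells were taken as they are.

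UMIs were summed per label or class and divided by the total of that label (CPM). A member was said to lead in a label at 3-fold over the next, and to differ between classes at 2-fold, on at least 20 UMIs in the higher one, with a value under 3 UMIs set to 3. Intervals are exact Poisson (levels), exact conditional binomial (ratios), Clopper-Pearson (shares of cells) or Wilson (shares of chains). Levels by label are described for members with at least 100 UMIs in a library; below that only Itgb8, which led in a label, and laminins and Nid1 set beside Lama4 or Dcn are printed for the thymocyte library, chosen after their values were seen, and partner genes come from a list of 29. The values of 1 member are not reported here, though the counts include it. The members, lists and thresholds were chosen with earlier results of these data known. Tested on simulated data for TEC against mesenchymal with 17383 genes, the rule recovered 200 of 200 genes changed 4-fold and called 174 of 17183 unchanged ones. The changed genes were drawn from those expected to hold at least 20 UMIs in the smaller class. Counts were drawn as Poisson from pooled levels, without differences between cells or fibroblast RNA in other labels. The simulation therefore covers counting error only. Thinning drew 1000 UMIs per cell (seed 7). Scripts ran under Python 3.11.15 with scipy 1.17.1 for intervals, numpy 2.4.6 and pandas 2.3.3 for sums, and matplotlib 3.10.9 for drawing. Neither library has a replicate, so no p-value was computed.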

Additional observations from a re-analysis of the deposited data

Results flagged for a closer look

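The stromal library held 2934 barcodes that the authors' annotation does not list, with 8663291 UMIs, and the comparisons above leave these cells out. They nevertheless carried 9729 UMIs of laminins and nidogens, or 1123 CPM, against 2548 CPM in annotated cells. They carried 8681 UMIs of integrins, or 1002 CPM, against 1301 CPM in annotated cells. Their cell types are not given.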

How the results depend on the processing

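Over 143 results, 1208 values were recomputed, each with 1 choice changed. Direction changed in 13, all after thinning each cell to 1000 UMIs, where the lower side held 0 or 1 UMI and was set by the 3-UMI floor. These ratios were 0.928 for "lead of Itgam, stromal library", and 0.278, 0.556 and 0.944 for "lead of Itgad, thymocyte library", "lead of Itgax, thymocyte library" and "lead of Itgb5, thymocyte library". They were 2.09, 2.65, 1.05 and 1.59 for "Itga2, DN against DP", "Itgbl1, DN against DP", "Lama5, DN against DP" and "Lamb3, DN against DP". They were 2.82, 1.11, 1.69 and 1.51 for "Itgbl1, mature SP pooled against DP", "Lama5, mature SP pooled against DP", "Lamb3, mature SP pooled against DP" and "Nid2, mature SP pooled against DP", and 1.58 for "Itga2, mature CD8 pooled against mature CD4 pooled". Thinning also took the counts of members with a leading label from 3 to 0 in the stromal and from 4 to 0 in the thymocyte library, of DN against DP from 14 to 6 and of mature labels against DP from 11 to 5. With initial clusters as labels, 10 members led in the thymocyte library. Without cells holding 3 or more mesenchymal UMIs, mTEC1 against cTEC gave 7 in place of 4. With at least 50 UMIs in place of 20, mature CD8 against CD4 gave 0 in place of 1. The other 92 recomputed counts stayed within 1.5 times. Of the single-gene values, 881 stayed within their counting interval and 215 kept their direction but left it, 76 of them after thinning, 54 under the mesenchymal filter and 42 with the mean of the cells' CPM. The mesenchymal filter, the removal of cluster TEC-e and the DN label limited to its own cluster were chosen after seeing the data. With initial clusters, 3 comparisons could not be made, since those clusters do not split mTEC1 from cTEC, vEC from capEC or mature CD8 from CD4. Depth limits members with few UMIs most, among them Lama1, Itga10, Itgad and Itgax. No paired analysis was possible because each library is 1 sample.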
